A study of Mus musculus with 4 samples.

Results

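Calmodulin and calcium signalling genes were examined for peaks of PHF2, a histone demethylase family protein that binds chromatin through its PHD finger, in mouse gastrocnemius, a calf muscle. The genes are 9 named members of the pathway among 21887 protein-coding genes: the calmodulin genes Calm2 and Calm3, the kinase genes Camk2a, Camk2d and Camk2g, the transcription factor genes Nfatc1 and Nfatc3, the inhibitor gene Rcan1 and the exchanger gene Slc8a3. They were chosen by name with earlier results of these data known, so their peaks are a description. A peak was assigned to a gene when it overlapped the RefSeq gene body or the 5 kb on either side. CUT&RUN, in which an antibody brings a nuclease to its target and the DNA around it is released, was done on muscle of male C57BL/6 mice aged 4 weeks. Control muscle (Ctrl) was Phf2 flox/flox and Acta1 Cre-, and knockout muscle (KO) was Phf2 flox/flox and Acta1 Cre+, so both groups carried the floxed allele. Acta1 drives Cre in muscle fibres, so the other cells of the muscle, such as those of vessels and connective tissue, are not its targets. For each genotype 1 library was made with an antibody to PHF2 and 1 with IgG, which has no specific target and measures background. With 1 library in each of the 4 groups no test across samples was possible, and peak lists check neither the deletion of Phf2 nor the cell types of the tissue.

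In muscle, calcium released from the sarcoplasmic reticulum triggers contraction and also acts as a signal to the nucleus. Calmodulin binds calcium and then switches on the CaM kinases and the phosphatase calcineurin. Calcineurin removes phosphates from NFAT factors, which enter the nucleus, while CaM kinases act on class II histone deacetylases and through them on MEF2 factors. This pathway is known for its part in setting slow fibre genes and in the response to nerve activity. Rcan1 binds and restrains calcineurin, and Slc8a3 exchanges sodium for calcium across the plasma membrane.

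Of the 9 genes, 3 had a Ctrl PHF2 peak: Calm2, Camk2d and Slc8a3. Over all protein-coding genes the share with such a peak was 7.38%. A KO PHF2 peak was present at Calm2 and Camk2d, against 0.713% of all genes, and each overlapped the Ctrl peak of its gene, which held for 0.53% of all genes. Slc8a3 had a peak in Ctrl and none in KO. Calm3, Camk2a, Camk2g, Nfatc1, Nfatc3 and Rcan1 had no peak in any of the 4 lists. No member had an IgG peak, where the shares over all genes were 0.064% in Ctrl and 0.155% in KO. Each member with a peak had 1 per library, and no other protein-coding gene lay within 1 kb of these peaks.

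The upstream sequences of 4 member promoters are given, from starts under a peak and from starts without one. RefSeq (GRCm38.p6, the assembly behind mm10) lists 7 start windows for 5 of the 9 genes, each with 250 bases before and 50 after the start. Calm2, Camk2a, Camk2g and Nfatc1 are the members with no entry in that table. The 250 bases before the start are printed for Camk2d (chr3:126596701-126596950, plus strand), which lay under a peak in both PHF2 libraries, and for Slc8a3 (chr12:81333181-81333430, minus strand), which lay under a Ctrl peak alone. Of all windows in the table, 2.84% were under a Ctrl PHF2 peak and 0.131% under a KO PHF2 peak. The sequences for Calm3 (chr7:16924033-16924282, minus strand) and for the internal start of Rcan1 (chr16:92400079-92400328, minus strand) lay under no peak. Capitals mark the CRE core TGACG, the GC box GGGCGG, the NFAT core GGAAA and the CCAAT box CCAAT on either strand, and matches may overlap.
Camk2d: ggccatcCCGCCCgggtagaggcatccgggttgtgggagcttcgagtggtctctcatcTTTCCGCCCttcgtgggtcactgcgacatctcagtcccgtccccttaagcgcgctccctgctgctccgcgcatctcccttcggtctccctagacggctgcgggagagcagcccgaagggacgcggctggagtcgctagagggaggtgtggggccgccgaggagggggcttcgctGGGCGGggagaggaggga
Slc8a3: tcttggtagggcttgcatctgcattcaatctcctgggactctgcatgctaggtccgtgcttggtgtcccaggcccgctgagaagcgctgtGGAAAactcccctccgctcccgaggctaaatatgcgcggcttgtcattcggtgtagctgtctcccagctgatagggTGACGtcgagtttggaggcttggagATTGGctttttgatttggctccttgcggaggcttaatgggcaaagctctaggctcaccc
Calm3: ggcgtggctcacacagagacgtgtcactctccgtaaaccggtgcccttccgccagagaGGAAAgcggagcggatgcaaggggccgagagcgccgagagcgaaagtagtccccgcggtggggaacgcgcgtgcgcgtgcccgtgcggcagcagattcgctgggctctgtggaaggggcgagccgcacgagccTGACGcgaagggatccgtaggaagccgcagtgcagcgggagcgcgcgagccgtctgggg
Rcan1 internal: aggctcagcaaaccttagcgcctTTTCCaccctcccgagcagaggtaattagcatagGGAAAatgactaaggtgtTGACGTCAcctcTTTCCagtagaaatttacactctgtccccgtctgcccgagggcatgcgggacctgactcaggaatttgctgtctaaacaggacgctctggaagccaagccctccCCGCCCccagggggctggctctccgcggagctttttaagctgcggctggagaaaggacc

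The 2 promoters under a peak differed from each other in these letters. The whole Camk2d window of 300 bases held 3 GC boxes and no CRE core, and the Slc8a3 window held no GC box, 1 CRE core and 1 CCAAT box. GC boxes were present in 35.7% of all 32851 RefSeq windows and in 74.5% of the 934 windows under a Ctrl PHF2 peak, so Slc8a3 lacks the letters that most windows under a peak hold. Of the 5 member windows without a peak, 4 held GC boxes as well, with 6 at the upstream start of Rcan1, 2 at a start of Nfatc3 and 1 each at Calm3 and the internal start of Rcan1. The internal Rcan1 start, whose transcript is a known target of calcineurin and NFAT, had 3 NFAT cores and the full CRE TGACGTCA beginning 175 bases before the start. The full CRE was found in 1.79% of all windows and in 2.14% of windows under a Ctrl peak, and the NFAT core in 61.3% and 53.4%. The CRE core was found in 20.8% of all windows and 32.5% of those under a peak, and the CCAAT box in 37.4% and 32.0%. An E-box (CANNTG, 72.3% of all windows) was present in 3 of the 7 member windows. The MEF2 motif (3.69%), the TATA box TATAAA (13.6%) and the CArG box (1.63%) were in none of the 7. A match is a run of letters and not evidence of binding.

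CpG content did not separate the member promoters with a peak from those without. The Camk2d window held 31 CpG and the Slc8a3 window 18. Without a peak, Calm3 had 44, the upstream start of Rcan1 33, its internal start 14, and the starts of Nfatc3 32 and 7. The median was 7 over all windows (quartiles 3 and 20) and 29 over windows under a Ctrl PHF2 peak (quartiles 20 and 36.75). Calm3, the upstream Rcan1 start and 1 start of Nfatc3 were therefore above the median of windows under a peak in CpG number and had no peak.

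Calm2 (Gene ID 12314, chr17:87433401-87446935) encodes calmodulin, the calcium sensor of the pathway, and had the highest fold enrichment of the members. The fold is the authors' ratio of the summit, the highest point of a peak, to the local background of the peak caller. The Ctrl PHF2 peak at chr17:87446092-87447191 was 1100 bp wide with a fold of 13.6, which ranked 10 of 1621 in its list by fold and 201 by width. It crossed the upper end of the gene, with 256 bp outside it and a summit 290 bp inside. The KO PHF2 peak at chr17:87446201-87446655 was 455 bp wide with a fold of 6.19, rank 99 of 161. It lay wholly within the Ctrl peak and covered 41.4% of it, and its summit was 194 bp further into the gene.

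Whole numbers of sequenced tags at each summit were recovered from the authors' fold and -log10 p. The Calm2 summit held 27 tags in Ctrl (exact Poisson 95% interval 17.8 to 39.3) and 12 in KO (6.20 to 21.0). The KO number was lower, at a ratio of 0.444, and the intervals overlapped. The counts are those at the summit of each library and so come from positions 194 bp apart. Intervals cover counting error only. By the same arithmetic the KO PHF2 library was 1.01 times the size of the Ctrl one, if a common fragment length was used for both.

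Calm3 (Gene ID 12315, chr7:16915379-16924032), a second gene for the identical calmodulin protein, had no peak. The nearest Ctrl PHF2 peak was 514 kb away, at Zc3h4.

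**Figure D1:**
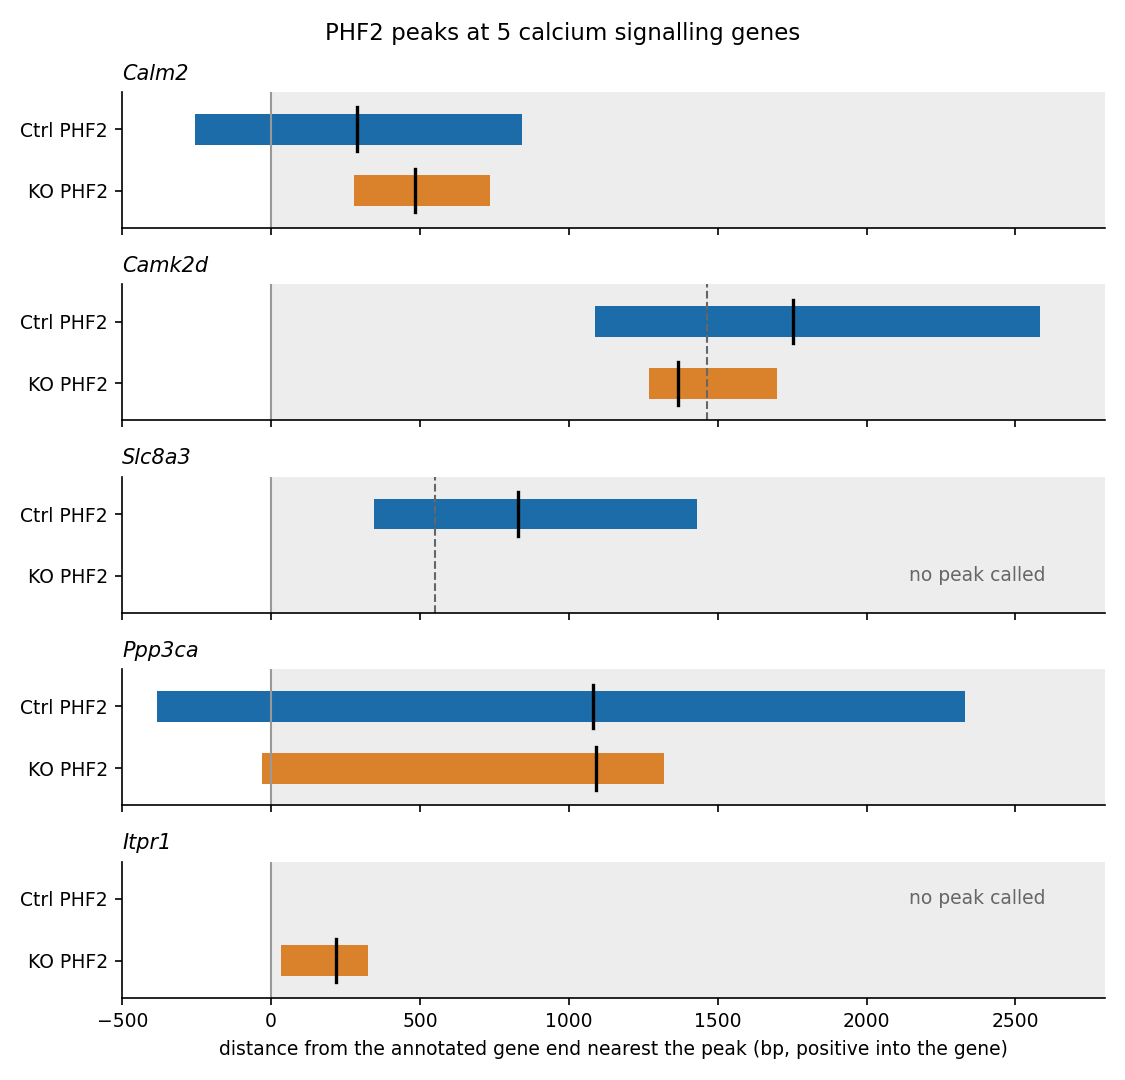
PHF2 peaks at Calm2, Camk2d, Slc8a3, Ppp3ca and Itpr1, drawn by distance in bp from the annotated gene end nearest the peak, with the gene in grey. Bars are peaks (blue Ctrl, orange KO), black ticks are summits and dashed lines are RefSeq starts where listed. The KO peaks at Calm2 and Camk2d lie inside the Ctrl peaks, Slc8a3 has a Ctrl peak alone and Itpr1 a KO peak alone.

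Camk2d (Gene ID 108058, chr3:126595487-126846326) encodes the delta subunit of CaM kinase II, which phosphorylates class II histone deacetylases and calcium-handling proteins. Its Ctrl PHF2 peak at chr3:126596574-126598067 was the widest of the members at 1494 bp, with a fold of 8.62 (rank 202 by fold and 108 by width). It covered all 300 bases of the listed promoter window, and its summit lay 288 bp downstream of the start at 126596951. The KO PHF2 peak at chr3:126596757-126597186 was 430 bp wide with a fold of 7.03. It covered 244 of the 300 promoter bases. Its summit lay upstream of the listed start, at position -96, and 384 bp from the Ctrl summit. That summit was still 1368 bp inside the annotated gene body, which begins before the 1 listed start.

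The Camk2d summits held 25 tags in Ctrl (16.2 to 36.9) and 20 in KO (12.2 to 30.9), a ratio of 0.8. Each number lies within the interval of the other. They come from summits 384 bp apart, and a difference in height was not tested. The KO peak covered 28.8% of the Ctrl peak. Camk2d and Calm2 had nearly the same tag number in Ctrl. The lower fold at Camk2d goes with a recovered local background of 1 on the caller's scale, against 0.361 at Calm2. The value at Calm2 is the lowest of the list and is shared by other peaks, so it is not particular to this gene.

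The other CaM kinase II members had no peak. Camk2g (Gene ID 12325, chr14:20734873-20794157), the gamma subunit gene, lay 189 kb from the nearest Ctrl PHF2 peak, which was at the calcineurin subunit gene Ppp3cb. Camk2a (Gene ID 12322, chr18:60925307-60988152), the alpha subunit gene known for its role in neurons, lay 409 kb from the nearest, at Ppargc1b. Of the 16 CaM kinase genes and their relatives listed for this pathway, Camk2d alone had a Ctrl PHF2 peak (6.25%, against 7.38% of all genes). Camk1d had a KO IgG peak of 200 bp inside the gene, with a fold of 8.47, and no PHF2 peak.

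Slc8a3 (Gene ID 110893, chr12:81197915-81333732) encodes a sodium-calcium exchanger that exports calcium from the cell. The Ctrl PHF2 peak at chr12:81332301-81333385 was 1085 bp wide with a fold of 7.41, rank 415 by fold and 210 by width. It covered 255 of the 300 bases of the promoter window, and the summit lay 277 bp downstream of the start at 81333180. The summit held 14 tags (7.65 to 23.5), close to the median of 15 of the list. As at Calm2 and other peaks, the background was the lowest of the list (0.361).

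No KO PHF2 peak was called at Slc8a3, and the nearest was 5379 kb away. KO tags at the site were not measured, so this absence is one of calling. KO peaks were called with as few as 10 tags, which lies inside the interval of the Ctrl summit.

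**Figure D2:**
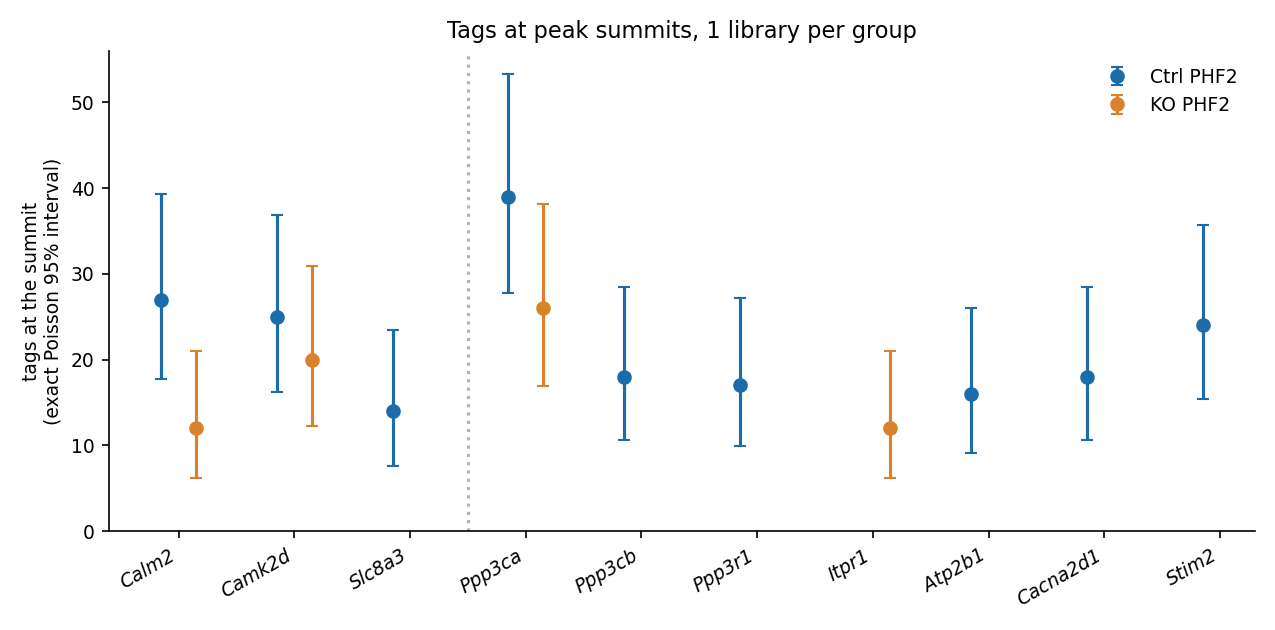
Tags at the summit of each PHF2 peak at the 3 members with a peak (left of the dotted line) and 7 other listed genes, with exact Poisson 95% intervals, for Ctrl (blue) and KO (orange). A missing point means that no peak was called. The KO value is below the Ctrl value at Calm2, Camk2d and Ppp3ca, and the intervals overlap at each.

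The NFAT genes and Rcan1 were without peaks. Nfatc1 (Gene ID 18018, chr18:80606205-80713071) lay 1496 kb from the nearest Ctrl PHF2 peak, at Setbp1. Nfatc3 (Gene ID 18021, chr8:106058818-106130537) lay 422 kb away, at Ctcf. All 5 NFAT family genes listed, which also include Nfatc2, Nfatc4 and Nfat5, had 0 peaks in the PHF2 lists. The shares over all genes were 7.38% in Ctrl and 0.713% in KO, so nothing particular to the family is read from this. Rcan1 (Gene ID 54720, chr16:92391951-92466169), induced by calcineurin and in turn its inhibitor, was the member farthest from a peak, at 2061 kb, with Vps26c at the nearest.

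By length, Camk2d (250840 bp) and Slc8a3 (135818 bp) were the longest members and both had a Ctrl peak, while Calm2 with its peak was short (13535 bp). The 6 genes without a peak spanned 8654 to 106867 bp, and the part of length in the split was not tested. At Calm2, Camk2d and Slc8a3 the peaks touched the gene body itself (0 kb), and the closest Ctrl peak to a gene without one was 189 kb away. For the KO PHF2 list the genes without a peak were 3046 kb (Camk2a) to 50835 kb (Calm3) from the nearest. Over the whole Ctrl PHF2 list the fewest tags at any summit were 8 and the lowest -log10 q of any peak was 1.40, in different peaks, and signal that the caller did not pass is not listed.

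**Figure D3:**
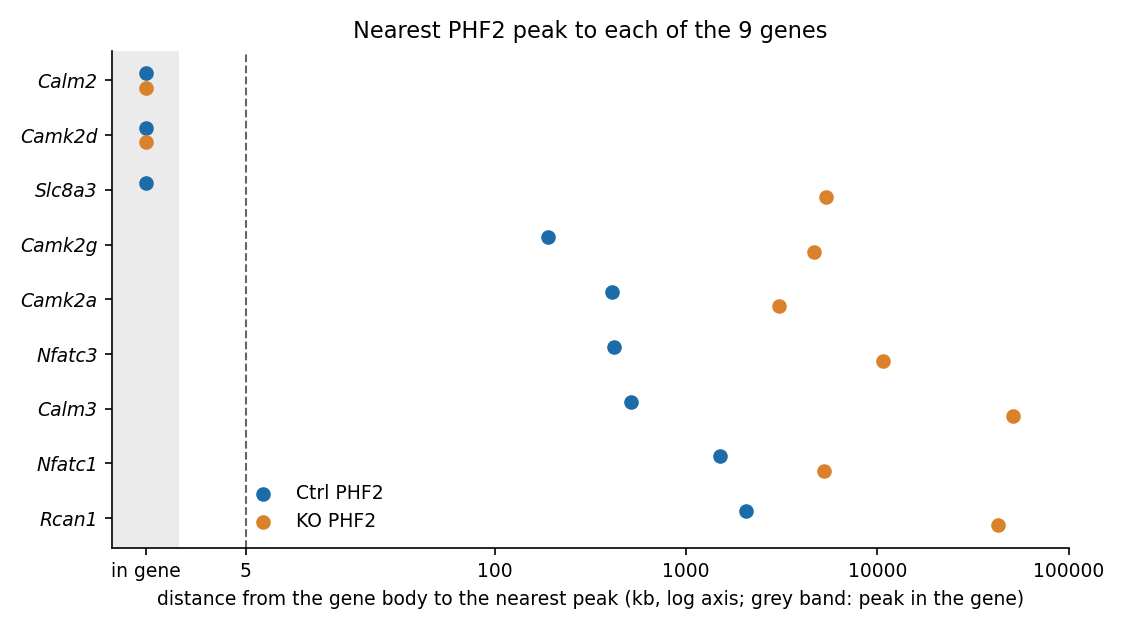
Distance in kb (log axis) from the body of each of the 9 genes to the nearest Ctrl (blue) and KO (orange) PHF2 peak, with the grey band for a peak in the gene and the dashed line at 5 kb. Genes either hold a peak or lie at least 189 kb from one in Ctrl.

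The wider pathway was described with 9 lists of 112 genes, which include the 9 members and were written with earlier results known. In all, 21 genes had a Ctrl PHF2 peak (18.8%, against 7.38% of all genes). A KO PHF2 peak was at 4 genes (against 0.713% of all genes), and 3 had overlapping peaks in both (against 0.53%). Without the members the counts were 18 of 103 (17.5%), 2 and 1. Of these 18 genes, 9 came from the list of 13 responsive factors described below, so the share was uneven across the lists. Among calcineurin genes and regulators, 3 of 13 had a Ctrl peak, and these were subunits of the phosphatase itself: the catalytic subunit genes Ppp3ca and Ppp3cb and the regulatory subunit gene Ppp3r1. Rcan1, Rcan2 and Rcan3 had none.

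Ppp3ca had the widest peak of all 112 genes, 2713 bp in Ctrl at chr3:136669332-136672044, with a fold of 8.65 and 39 tags (27.7 to 53.3). Its KO peak of 1352 bp at chr3:136669682-136671033 had a fold of 10.6, rank 7 of 161, with 26 tags (17.0 to 38.1). The summits were 10 bp apart. The KO tag number was the lower. The KO fold was still the higher, because it was taken over a recovered background of 0.584, against 2.04 in Ctrl. Folds are therefore not comparable between lists here. At Ppp3r1 the Ctrl peak had a fold of 8.21 with 17 tags, and at Ppp3cb 4.23 with 18 tags, both without a KO peak.

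Among calcium transport and buffer genes the share with a Ctrl peak was 15.4% for exporters, 5.88% for sarcoplasmic reticulum genes, 15.8% for entry genes and 9.09% for buffers, against 7.38% of all genes. Without the chosen member Slc8a3 the exporter share was 8.33% (1 of 12). Of 13 exporters of the plasma membrane and relatives, Slc8a3 and the calcium pump gene Atp2b1 (fold 5.25, 16 tags) had one. Of 17 genes of sarcoplasmic reticulum pumps and release, Casq1, which encodes the calcium-storing calsequestrin of fast fibres, had 2 Ctrl peaks (folds of 5.55 and 6.26). The IP3 receptor gene Itpr1 had a KO peak without a Ctrl peak, 292 bp wide with a fold of 6.19 and 12 tags (6.20 to 21.0). Those are the same fold and tags as the KO peak at Calm2. Of 19 calcium entry genes 3 had a Ctrl peak: the channel subunit gene Cacna2d1 (fold 9.32, 18 tags), the store sensor gene Stim2 (7.65, 24 tags) and Cacnb1 (5.05). The peak assigned to Cacnb1 lies 3629 bp beyond the gene and within 1 kb of Rpl19. Of 11 buffers and sensors, Pvalb, which encodes the fast-fibre calcium buffer parvalbumin, had 1 (5.05, 14 tags).

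**Figure D4:**
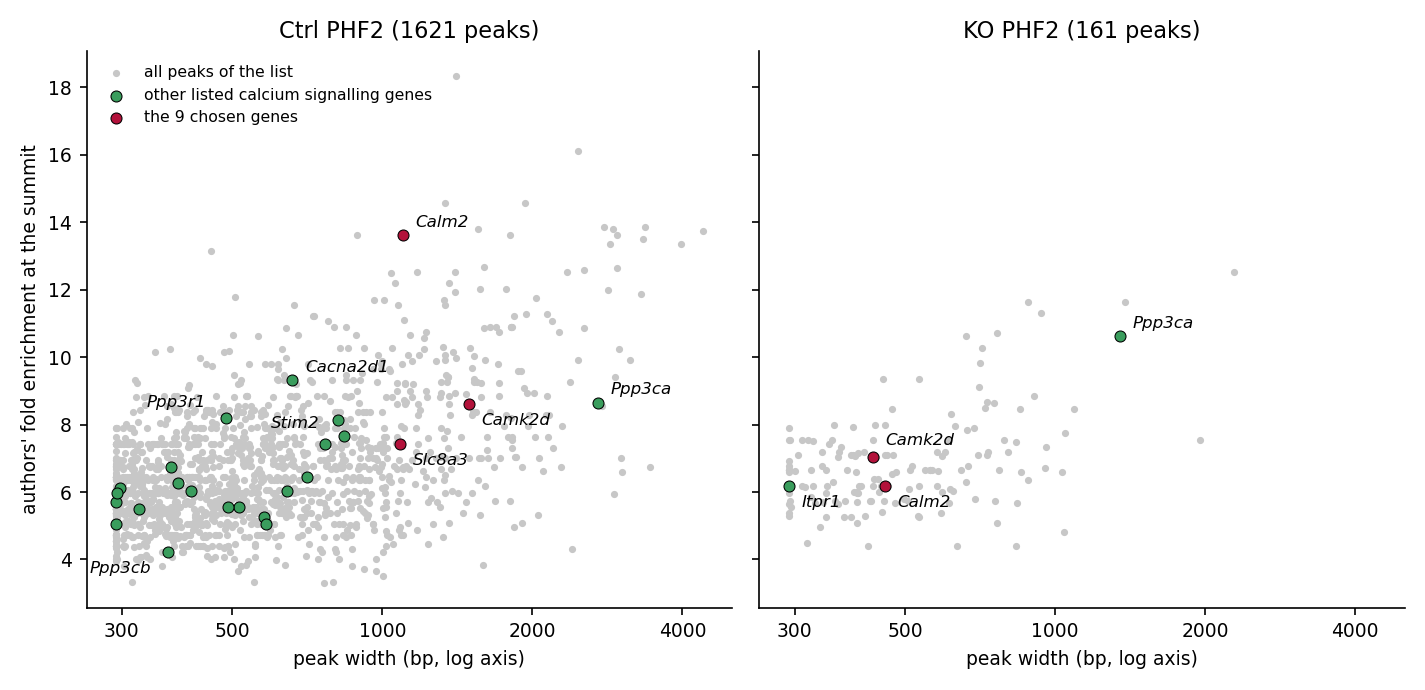
Authors' fold enrichment against peak width (bp, log axis) for all peaks of the Ctrl and KO PHF2 lists (grey), with peaks at the 9 genes in red and at the other listed genes in green. Calm2 stands near the top of the Ctrl list at 13.6, and Ppp3ca is the widest of the listed genes in both panels.

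The downstream nuclear list, factors known to respond to CaM kinases or calcineurin, had a Ctrl PHF2 peak at 9 of 13 genes (69.2%). A KO PHF2 peak was at 0 of them, against 0.713% of all genes. Among all genes with a Ctrl peak, 92.2% had no KO peak. The highest folds were at the MEF2 gene Mef2d (8.15, with a second peak of 6.75), the class II deacetylase gene Hdac7 (7.41), Mef2c (6.46, with a second of 5.50) and Hdac5 (6.11). Named after their values were seen, the others were Hdac4, Mef2a, the CREB gene Creb1, Crtc2 and Ppargc1a. The Crtc2 peak lies 1439 bp beyond the gene and within 1 kb of Dennd4b. The count stands beside 7.38% of all genes, and the list shares genes with those on which earlier results were known, so nothing particular to it is read from the share.

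**Figure D5:**
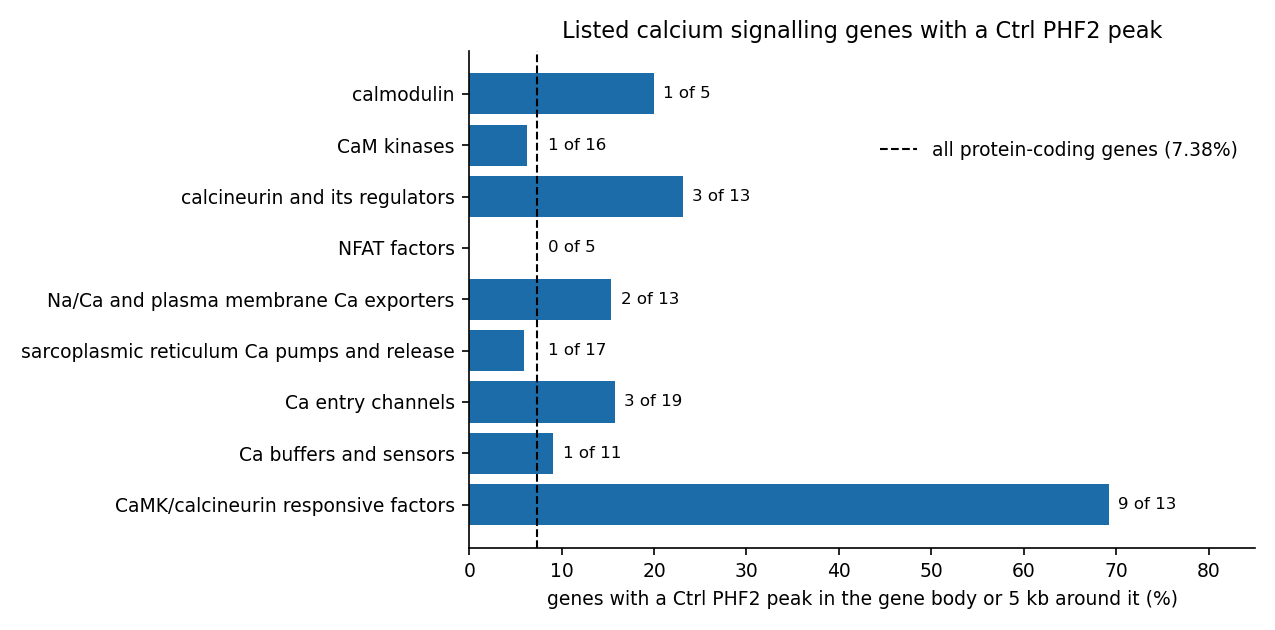
Share of genes in each of the 9 lists with a Ctrl PHF2 peak in the gene body or 5 kb around it (bars, in percent, with counts), beside the share of all protein-coding genes (dashed line, 7.38%). The share runs from 0 of 5 NFAT factors to 9 of 13 responsive factors. Bars include the chosen members, which were picked with earlier results of these data known.

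Across the lists, 18 genes had a Ctrl PHF2 peak and no KO PHF2 peak, with 21 peaks of 292 to 1085 bp and folds of 4.23 to 9.32, so Slc8a3 had the widest of them. Such genes were 6.8% of all protein-coding genes. Put another way, 18 of the 21 listed genes with a Ctrl peak (85.7%) had no KO peak, against 1489 of 1615 over all genes (92.2%). All 21 summits held at least 10 tags, the fewest of any KO peak, and 20 reached the lowest -log10 p of the KO list, 6.19. The 3 genes with overlapping peaks had Ctrl widths of 1100 bp (Calm2), 1494 bp (Camk2d) and 2713 bp (Ppp3ca). All were above the range of the 21 peaks, Calm2 only just, against 1085 bp at Slc8a3. A link between width and overlap was not tested.

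Where a transcription start was listed close by, Ctrl summits lay downstream of it. Of the 24 Ctrl peaks at listed genes, 15 at 14 genes had a summit within 1000 bp of a start listed for the gene, and 15 of the 15 were downstream, 10 to 873 bp into the transcript with a median of 228 bp. Camk2d (288 bp) and Slc8a3 (277 bp) were near that median. Over the whole Ctrl PHF2 list, 1114 of 1621 summits were within 1000 bp of any listed start, and 850 of them (76.3%) were downstream. Their median was 218 bp, with quartiles of 15.75 and 410.75 bp. Whole-list distances run to the nearest start of any gene, so this share is not measured as that of the listed genes. In the KO PHF2 list 93 summits were that close, with a median of 399 bp, and 82.8% were downstream. The KO summit at Camk2d, inside the gene body but upstream of its listed start, is one of the upstream minority.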

How the data were processed

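The authors deposited 1 peak list per library, 4 in all, in the 10-column narrowPeak layout. The submitters' processing notes name the aligner Bowtie2, the peak caller MACS2 and the build mm10, without versions. For the caller's settings, its control and the treatment of duplicates, nothing is given in the sources used here. Calling was done per library, as each peak's name holds 1 library. The deposited fold enrichment is a ratio of the summit to a local background, and the deposited -log10 p and the deposited -log10 q were computed over that background; the deposited score and the deposited summit position follow the same layout, and the score was not used. Groups came from sample titles. The members and lists were chosen with earlier results of these data known.

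Coordinates are 1-based. A shared base (1 bp) counted as overlap. Tools were Python 3.11.15, pandas 2.3.3, NumPy 2.4.6, matplotlib 3.10.9 and SciPy 1.17.1. Tags were solved from fold = (pileup + 1) / (background + 1) and the Poisson upper tail. They came out whole, within 0.005, for each of 309 distinct combinations of fold and p in Ctrl PHF2 and each of 84 in KO PHF2, with 1 tag worth 0.649 and 0.609. The method was tested on data simulated with these same formulas, so that test cannot show that the authors' caller used them. Read totals are unknown. Named genes were all members, and per list up to 4 others by Ctrl fold and any with a KO PHF2 or IgG peak; 1 gene of the lists as first written is not reported here and was left out of their counts. No test was run. Alternatives were other windows, the summit alone, a -log10 q of at least 3, merged peaks and other overlap rules.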

Additional observations from a re-analysis of the deposited data

How the results depend on the processing

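The 6 counts of members and of peaks at members were recomputed under 38 combinations of result and alternative, and 37 left them as they were. These were the gene body alone, 1 kb or 10 kb around it, the summit alone, a -log10 q of at least 3, peaks merged under 1 kb, and peaks under 1 kb apart taken as shared. The exception was a reciprocal overlap of at least 50%, under which 0 members had overlapping Ctrl and KO PHF2 peaks, in place of 2. The KO peaks covered 41.4% of the Ctrl peak at Calm2 and 28.8% at Camk2d, which is below that limit. The 37 unchanged outcomes say little about robustness, because most could not have come out otherwise. Every member peak overlapped its gene body with the summit inside, and no other peak lay within 10 kb of a member. The lowest -log10 q of a member peak was 3.28. No paired analysis was possible because there was 1 library per group, and leaving out a library would empty its group. Summit tags and promoter letters had no alternative. Depth limits the absences: only called peaks are listed, and tags at genes without a peak were not measured.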
